A study of Mus musculus with 8 samples.

Results

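The testis ADAM genes examined here were Adam1b, Adam2, Adam3, Adam5, Adam18, Adam24, Adam25, Adam29, Adam30 and Adam32. They were taken as all probes of the deposited normalized table whose platform symbol is one of these 10 names. That gave 15 of 45281 probes: 3 each for Adam29 and Adam30, 2 for Adam1b and 1 for each other gene. Illumina bead arrays had been used to measure total RNA of mouse round spermatids, which are haploid cells at the start of sperm formation. The donor mice were 8 weeks old and the cells had been purified by elutriation. The 8 arrays comprised 4 wildtype arrays without a transgene, 2 arrays labelled with an shSLX RNAi construct and 2 labelled with an shSLY RNAi construct. The constructs express short hairpin RNAs, against the multicopy X-linked Slx genes in one case and their Y-linked relative Sly in the other. Controls were matched for age and strain per the design text. The strain, the promoter that drives each construct and the number of founder lines are not given in the sources used here. No label ties the samples to separate animals, so the p-values may reflect technical spread alone.

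ADAM proteins are membrane proteins with a prodomain, a metalloprotease domain, a disintegrin domain and a cysteine-rich domain. A set of them is made mainly in the testis, is carried on the sperm surface and is trimmed as sperm mature in the epididymis. In mice ADAM1 and ADAM2 form the heterodimer fertilin, and ADAM2 and ADAM3 are needed for sperm to pass from uterus to oviduct and to bind the zona pellucida. Some testis ADAMs, such as ADAM24, ADAM25 and ADAM30, keep the zinc-binding site of an active protease, while ADAM2, ADAM3 and ADAM29 lack it.

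The genes lie in a few places of the GRCm38.p6 gene order. Adam18, Adam3, Adam5 and Adam32 are consecutive protein-coding genes on chromosome 8. Adam24 and Adam25 are neighbours elsewhere on chromosome 8, where Adam29 also lies. Adam1b is on chromosome 5 next to Adam1a, Adam2 is on chromosome 14 and Adam30 on chromosome 3. Related family members may bind the same probe, and probe sequences were not examined here.

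RefSeq upstream sequence (GRCm38.p6) was at hand for 3 of the 10 genes. It is shown for Adam29 and Adam1b, the genes whose probes had the lowest unadjusted p in the shSLY and the shSLX comparison. Each run is the 250 bases before the RefSeq start, 5′ to 3′ on the minus strand, at chr8:55906965-55907214 for Adam29 and chr5:121503436-121503685 for Adam1b. Capitals mark the 8 letters TGACNTCA on either strand, a relaxed form of the cAMP response element TGACGTCA. CREM, a factor of postmeiotic germ cells, binds such elements.
Adam29: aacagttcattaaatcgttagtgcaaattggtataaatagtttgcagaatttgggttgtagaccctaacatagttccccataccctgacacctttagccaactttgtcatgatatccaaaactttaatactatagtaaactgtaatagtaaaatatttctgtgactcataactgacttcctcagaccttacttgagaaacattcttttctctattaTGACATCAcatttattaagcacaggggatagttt
Adam1b: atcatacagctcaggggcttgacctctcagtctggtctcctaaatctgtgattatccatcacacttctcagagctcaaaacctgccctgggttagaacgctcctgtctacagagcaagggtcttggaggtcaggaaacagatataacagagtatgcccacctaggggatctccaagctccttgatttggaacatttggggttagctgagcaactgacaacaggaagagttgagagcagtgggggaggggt
The Adam29 run holds 1 match, which begins 34 bases before the start, and the Adam1b run holds none. Of 32851 such upstream windows in the table, 7.49% hold TGACNTCA on either strand and 1.55% hold TGACGTCA. A match is a run of letters and not a measured binding site.

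The arrays lay on 3 slides by their array labels: wildtype 2 on slide 1, wildtype 1 with both shSLY arrays on slide 2, and wildtype 3 and 4 with both shSLX arrays on slide 3. The deposited tables hold the same probes but not the same set of columns under the same names. By probe ranks, 2 non-normalized columns (wildtype 1 and 2) match the normalized column of that name. Another 4 match under a different name: the normalized shSLX pair is headed shSLY there, and the normalized shSLY pair is headed wildtype 3 and 4. The last 2, headed shSLX, match no normalized column, and normalized wildtype 3 and 4 have no counterpart. Every direction given here follows the normalized table, and shSLX and shSLY name libraries by its labels only. The slides are likewise known by label only. By the matched columns, the normalized shSLX pair would lie on slide 2 and the normalized shSLY pair on slide 3. Values that use the slide thus hold only if the array labels of the samples are right.

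Sly, the target of the shSLY construct, was examined as a check of those labels. It read 10.52, 10.36, 10.05 and 10.04 (log2) in wildtype 1 to 4, 9.45 and 8.93 in shSLX 1 and 2, and 10.56 and 10.26 in shSLY 1 and 2. It fell by 0.86 ± 0.17 (SE, log2) in the libraries labelled shSLX (limma adjusted p = 0.0377). In those labelled shSLY it differed by -0.11 ± 0.21 (adjusted p = 0.959), which goes against that label, and the difference between both effects was -0.75 (adjusted p = 0.257). With the non-normalized values and headers, Sly differed by -1.41 ± 0.31 in the columns headed shSLY (adjusted p = 0.115) and fell by 0.91 ± 0.25 in those headed shSLX (adjusted p = 0.0469). The columns headed shSLY there hold the normalized shSLX libraries. With the slide fitted, those headed shSLX were set against the columns headed wildtype 3 and 4, which hold the normalized shSLY libraries. Slx and Slxl1 had no named probe. All 13 spermatid markers with a probe passed the detection filter, against 9 of 12 spermatocyte, 4 of 10 spermatogonia, 7 of 10 immune, 5 of 9 Sertoli, 1 of 7 Leydig, 3 of 10 stromal and 0 of 7 epididymal markers. In bulk samples, fewer cells of a type and less RNA per cell cannot be told apart.

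Of the 15 probes, 11 were detected (detection p-value under 0.01) in all 8 columns of the other deposited table, and these stand for 8 of the 10 genes. The other 4 probes were detected in 0 columns. They are the single probes of Adam2 and Adam25, and 1 probe each of Adam29 and Adam30. The Adam2 probe had detection p-values between 0.347 and 0.899 and a log2 signal of 5.85 to 6.05. The Adam25 probe had detection p-values between 0.554 and 0.931 and a log2 signal of 5.83 to 6.07. The dim Adam29 probe (ILMN_2746402) read 5.96 to 6.25 and the dim Adam30 probe (ILMN_2439745) 5.83 to 6.10. The transcripts of Adam2, which encodes fertilin β, and Adam25, which encodes testase 2, thus had no reading well above background by their single probes. No fold change is given for them. Adam29 and Adam30 each had 1 dim probe beside detected ones, so a single dim probe does not show that a transcript is absent. All signals below are log2 values after background correction and quantile normalization. A level of one probe is not set against that of another.

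**Figure D1:**
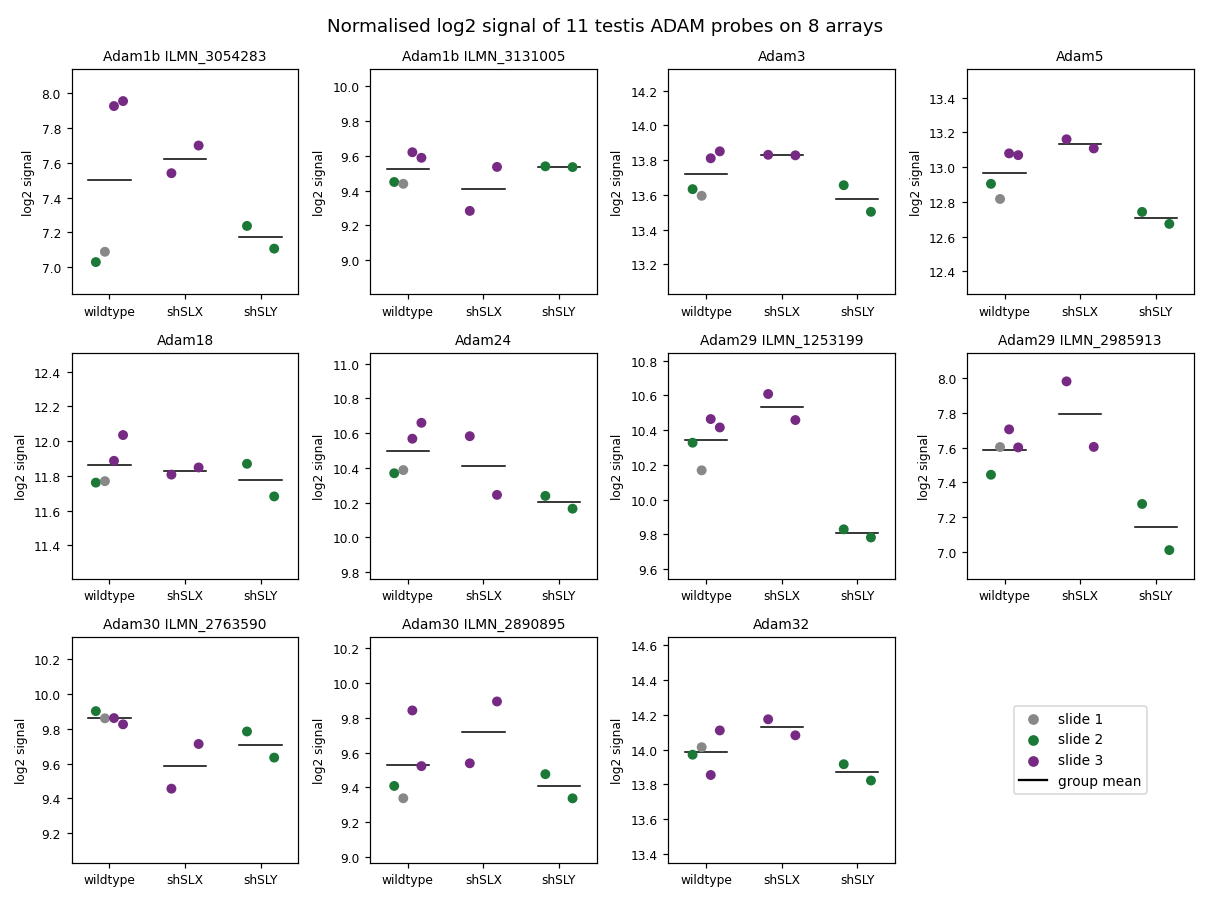
Normalised log2 signal (vertical axis, each panel spanning the same 1.3 log2 units) of the 11 detected probes on each array, by group, with points coloured by slide and bars at group means. Both Adam29 probes are lowest in the 2 arrays labelled shSLY, and wildtype arrays of slide 3 (purple) lie above the other wildtype arrays for most probes.

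Adam1b encodes the α subunit of sperm-surface fertilin and was read by 2 detected probes. The brighter probe (ILMN_3131005) read 9.45, 9.44, 9.62 and 9.59 in wildtype 1 to 4, 9.28 and 9.54 in shSLX 1 and 2, and 9.54 and 9.54 in shSLY 1 and 2. The dimmer probe (ILMN_3054283) read 7.03, 7.09, 7.93 and 7.96 in the wildtype arrays, 7.54 and 7.70 in libraries labelled shSLX and 7.24 and 7.11 in libraries labelled shSLY. By both probes, the arrays labelled shSLX lay below wildtype 3 and 4 of their own slide. Neither group with a construct label stood clear of all 4 wildtype arrays. Adam3, which encodes cyritestin, read 13.63, 13.59, 13.81 and 13.85 in wildtype 1 to 4. It read 13.83 and 13.83 in libraries labelled shSLX and 13.66 and 13.50 in libraries labelled shSLY, so both groups overlapped the wildtype range.

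Adam5, Adam18 and Adam32 encode further sperm ADAMs of the chromosome 8 cluster. Adam5 read 12.90, 12.82, 13.08 and 13.07 in wildtype 1 to 4, 13.16 and 13.11 in libraries labelled shSLX, and 12.74 and 12.67 in libraries labelled shSLY. The arrays labelled shSLX thus lay just above and the arrays labelled shSLY just below all 4 wildtype arrays. Adam18 read 11.76, 11.77, 11.89 and 12.04 in wildtype, 11.81 and 11.85 in libraries labelled shSLX and 11.87 and 11.68 in libraries labelled shSLY. Adam32 read 13.97, 14.01, 13.85 and 14.11 in wildtype, 14.17 and 14.08 in libraries labelled shSLX and 13.92 and 13.82 in libraries labelled shSLY. For Adam18 and Adam32 each group with a construct label overlapped wildtype.

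Adam29 encodes a testis ADAM without the protease site. Its brighter probe (ILMN_1253199) read 10.33, 10.17, 10.46 and 10.42 in wildtype 1 to 4, 10.61 and 10.46 in libraries labelled shSLX, and 9.83 and 9.78 in libraries labelled shSLY. Its other detected probe (ILMN_2985913) read 7.44, 7.60, 7.71 and 7.60 in wildtype, 7.98 and 7.60 in libraries labelled shSLX, and 7.28 and 7.01 in libraries labelled shSLY. Both arrays labelled shSLY lay below all 6 other arrays by either probe. Over all probes, 19% had both of these arrays below all 4 wildtype arrays, and the share below all 6 was not computed. Across the 8 arrays the 2 probes correlated at a Pearson's r of 0.91, a description over arrays that share slides.

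Adam24 encodes testase 1, a protease of mature mouse sperm that limits the entry of extra sperm into the egg. It read 10.37, 10.39, 10.57 and 10.66 in wildtype 1 to 4, 10.58 and 10.25 in libraries labelled shSLX, and 10.24 and 10.17 in libraries labelled shSLY. The arrays labelled shSLY lay below all 4 wildtype arrays, as did shSLX 2 but not shSLX 1. Adam30 encodes another testis ADAM with the protease site. Its probe ILMN_2763590 read 9.90, 9.86, 9.86 and 9.83 in wildtype, 9.46 and 9.71 in libraries labelled shSLX and 9.79 and 9.63 in libraries labelled shSLY, all 4 arrays with a construct label below all wildtype arrays. Its probe ILMN_2890895 read 9.41, 9.34, 9.84 and 9.52 in wildtype, 9.54 and 9.89 in libraries labelled shSLX and 9.48 and 9.34 in libraries labelled shSLY, with no such separation. Over all probes, 13.4% had both arrays labelled shSLX, and 19% both labelled shSLY, below all 4 wildtype arrays. The share with all 4 construct-labelled arrays below wildtype was not computed. The Adam30 probes did not vary together, with a Pearson's r of -0.0070 over the 8 arrays.

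In the arrays labelled shSLX, set against wildtype with the slide fitted as a block, 0 of the 11 probes passed limma's test at an adjusted p under 0.05. Over all probes, 2.41% passed (400 of 16572). At an unadjusted p under 0.05 there was 1 member probe, the dimmer Adam1b probe, with a log2 difference of -0.32 ± 0.11 (SE) and an adjusted p of 0.183. The brighter Adam1b probe differed by -0.20 ± 0.11 (adjusted p = 0.407). Adam30 differed by -0.26 ± 0.12 by one probe and 0.034 ± 0.15 by the other (adjusted p = 0.307 and 0.93). Adam24 differed by -0.20 ± 0.13, Adam18 by -0.13 ± 0.11 and Adam32 by 0.15 ± 0.12. Adam3 was at -0.0014 ± 0.10, with a 95% interval of -0.23 to 0.23, and Adam5 at 0.060 ± 0.097, with an interval of -0.16 to 0.28. The 95% intervals of all 11 probes lay between -0.56 and 0.48, which bounds the differences these arrays leave possible probe by probe.

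The dimmer Adam1b probe depended on the wildtype arrays. Wildtype 3 and 4 exceeded wildtype 1 and 2 by 0.88 (log2) on average, more than any group difference of that probe in the slide-blocked fit. Replicate numbers 3 and 4 occur in wildtype only, so a replicate block leaves wildtype 3 and 4 out of the comparison. With no slide term the probe's shSLX difference was 0.12 (adjusted p = 0.843). With the replicate number as a block it passed the test as higher (0.56, adjusted p = 0.0210). Without shSLX 2 it passed as lower (-0.40, adjusted p = 0.0387), as did the Adam30 probe ILMN_2763590 (-0.39, adjusted p = 0.0463).

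In the arrays labelled shSLY 0 of the 11 probes passed the same test, against 0.712% of all probes (118 of 16572). At an unadjusted p under 0.05 there was again 1, the brighter Adam29 probe. Its log2 difference was -0.52 ± 0.13 (SE). As the slide was fitted, that is the difference from wildtype 1 alone, a ratio of 1.44 between wildtype 1 and the libraries labelled shSLY. It had an unadjusted p of 0.00264, an adjusted p of 0.143 and a 95% interval of -0.81 to -0.24. The other Adam29 probe differed by -0.30 ± 0.18 (adjusted p = 0.745). Adam5 was at -0.20 ± 0.12, Adam30 at -0.19 ± 0.15 and -0.0017 ± 0.19, Adam24 at -0.17 ± 0.16, and Adam32 at -0.10 ± 0.14. Adam3 was at -0.054 ± 0.12 and Adam18 at 0.014 ± 0.14, while the Adam1b probes stood at 0.14 ± 0.13 and 0.088 ± 0.14. All 11 intervals lay between -0.81 and 0.44, wider than for libraries labelled shSLX, since the slide of the arrays labelled shSLY holds 1 wildtype array.

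**Figure D2:**
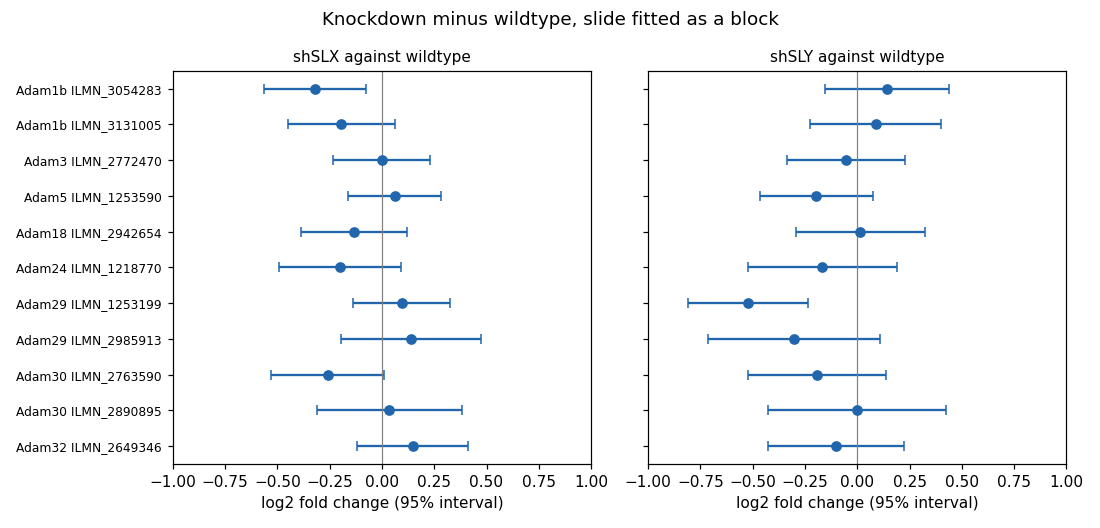
Log2 fold change of each detected probe (construct-labelled libraries minus wildtype, slide as a block, points) with its 95% interval (bars), for libraries labelled shSLX on the left and shSLY on the right. The interval excludes 0 for 1 probe on each side, Adam1b ILMN_3054283 at -0.32 and Adam29 ILMN_1253199 at -0.52, neither past the adjusted threshold.

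The Adam29 difference passed the test in 5 of 17 alternatives. These were no slide term (-0.54, adjusted p = 0.0219), the slide as a random block (-0.53, 0.0296), the arrays of that slide alone (-0.52, 0.0339) and the fits without either array labelled shSLX (-0.52, 0.0305). Where the slide was fitted, the estimate rests on both arrays labelled shSLY and wildtype 1 alone. Choices that change only the detection filter or leave out arrays of other slides cannot move it, so these counts do not measure robustness. The Adam29 difference was below 0 in 16 of the 17. In the remaining one, the non-normalized table under its own headers, it was 0.21 (adjusted p = 0.636). There the shSLY libraries are headed wildtype 3 and 4 and the shSLX libraries are headed shSLY, so that value sets other libraries against each other.

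**Figure D3:**
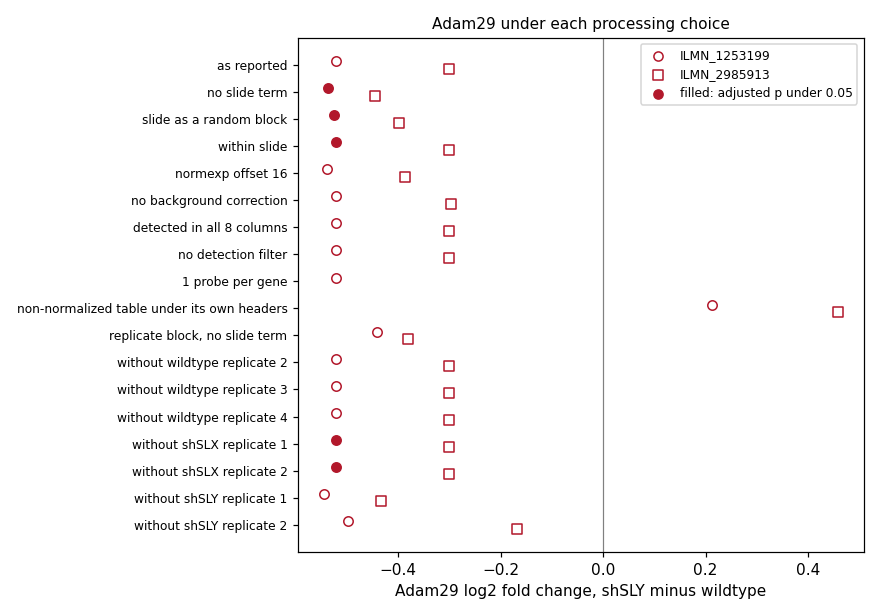
Adam29 log2 fold change, libraries labelled shSLY minus wildtype (horizontal axis), for both detected probes under each processing choice (rows), filled where the adjusted p was under 0.05. The brighter probe lies between -0.55 and -0.44 in all settings but the non-normalized table, where it is at 0.21.

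The effects under both construct labels were compared directly in the same fit. Of the 11 probes, 0 passed, against 1.8% of all probes, and 2 had an unadjusted p under 0.05. The brighter Adam29 probe differed by 0.62 ± 0.16 (shSLX effect minus shSLY effect, adjusted p = 0.117), from 0.093 in libraries labelled shSLX and -0.52 in libraries labelled shSLY. The dimmer Adam1b probe differed by -0.46 ± 0.17 (adjusted p = 0.264). The Adam29 difference passed with no slide term (0.73, adjusted p = 0.00538), with the slide as a random block (0.68, 0.0157), without shSLX 2 (0.69, 0.0214) and with the replicate number as a block (0.73, 0.00301). Adam5 differed by 0.26 ± 0.15 (adjusted p = 0.522) and passed with no slide term (0.43, adjusted p = 0.0399).

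Taking 1 probe per gene, the 8 genes had a median log2 fold change of -0.067 in libraries labelled shSLX, against -0.0085 over 9451 genes, and -0.13 in libraries labelled shSLY, against -0.012. Above 0 lay 3 of 8 genes in libraries labelled shSLX and 2 of 8 in libraries labelled shSLY, where 48.1% and 47.2% of all genes did. Both comparisons share the fit and its estimate of residual spread. The shSLX values rest on wildtype 3 and 4 and the shSLY values on wildtype 1, the wildtype arrays of their own slides. Of the 11 probes, 5 were lower in both arrays labelled shSLY than in all 4 wildtype arrays and 0 were higher, against 19% and 16.6% of all probes. They were both Adam29 probes, Adam5, Adam24 and the Adam30 probe ILMN_2763590. In the arrays labelled shSLX 1 was lower (the same Adam30 probe) and 1 higher (Adam5), against 13.4% and 11.7%. Against wildtype of their own slide alone, 4 probes were lower in both arrays labelled shSLX (24.9% of all probes) and 1 was higher (21.6%), while 6 were lower in both arrays labelled shSLY (40.8%) and 2 were higher (35.1%). The summed deposited intensity of the 8 probes was 43752 to 49929 in wildtype, 48619 to 50238 in libraries labelled shSLX and 39489 to 42718 in libraries labelled shSLY.

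Among the wildtype arrays alone, 8 of the 11 probes were higher in both wildtype 3 and wildtype 4 than in wildtype 1 and 2, and 0 were lower in both. Over all probes the shares were 29.7% and 34.1%. The exceptions were Adam32, Adam30 ILMN_2763590 and Adam29 ILMN_2985913. For 7 of these 8 the gap between the wildtype pairs was 0.16 to 0.31, and for the dimmer Adam1b probe it was 0.88. Slide 3 and the pair of wildtype 3 and 4 cannot be told apart here, while wildtype 1 and 2 are on different slides by label.

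Members varied together to different degrees over the 8 arrays. Adam5 and Adam29 had a Pearson's r of 0.96, Adam3 and Adam5 0.94 and Adam3 and Adam29 0.83. Adam1b and Adam32 stood at -0.55. Over 28 gene pairs the median r was 0.46 and 20 were above 0. The mean of the centred members ran from -0.20 in shSLY 2 to 0.15 in wildtype 4. The other genes most like that mean over the 8 arrays were Lin54 (r = 0.986), Kcnk1 (0.985), Noc3l (0.982), Gramd1b (0.979) and Sec23ip (0.978). They were the top 5 among all other detected genes, over arrays that share slides.

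The rest of the family was read beside the members. Of 8 detected other testis ADAM genes, 0 passed in either comparison. Their median was -0.039 in libraries labelled shSLX and -0.26 in libraries labelled shSLY, where 3 of 8 lay above 0. Adam4, whose product joins complexes with ADAM2 and ADAM3 on mouse sperm, was at 0.22 ± 0.11 in libraries labelled shSLX and -0.45 ± 0.14 in libraries labelled shSLY (adjusted p = 0.345 and 0.26). Adam21 was at 0.040 ± 0.11 and -0.29 ± 0.13 (0.874 and 0.579). Of 12 widely expressed ADAM genes with a probe, 4 were detected and 0 passed. Adam17, the sheddase of tumour necrosis factor, was at -0.044 ± 0.11 in libraries labelled shSLX and -0.032 ± 0.14 in libraries labelled shSLY, and Adam22 at -0.39 ± 0.13 in libraries labelled shSLY (adjusted p = 0.332).

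Genes needed for ADAM3 to mature were examined because ADAM3 reaches the mouse sperm surface only with chaperone help. Of 14 detected, 0 passed in either comparison, with medians of -0.10 and -0.054. Clgn encodes calmegin, a testis chaperone that assembles fertilin. It was at -0.47 ± 0.12 in libraries labelled shSLX (adjusted p = 0.106) and 0.056 ± 0.15 in libraries labelled shSLY. Calr3, which encodes the chaperone calsperin, was at 0.17 ± 0.10 and -0.085 ± 0.12, and Pdilt, a testis disulfide isomerase relative, at -0.12 ± 0.12 and -0.10 ± 0.15. Of 9 sperm-egg fusion genes 0 passed, with medians of -0.037 and -0.0015. Izumo1, the sperm ligand of egg JUNO, was at -0.14 ± 0.12 and -0.025 ± 0.14.

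**Figure D4:**
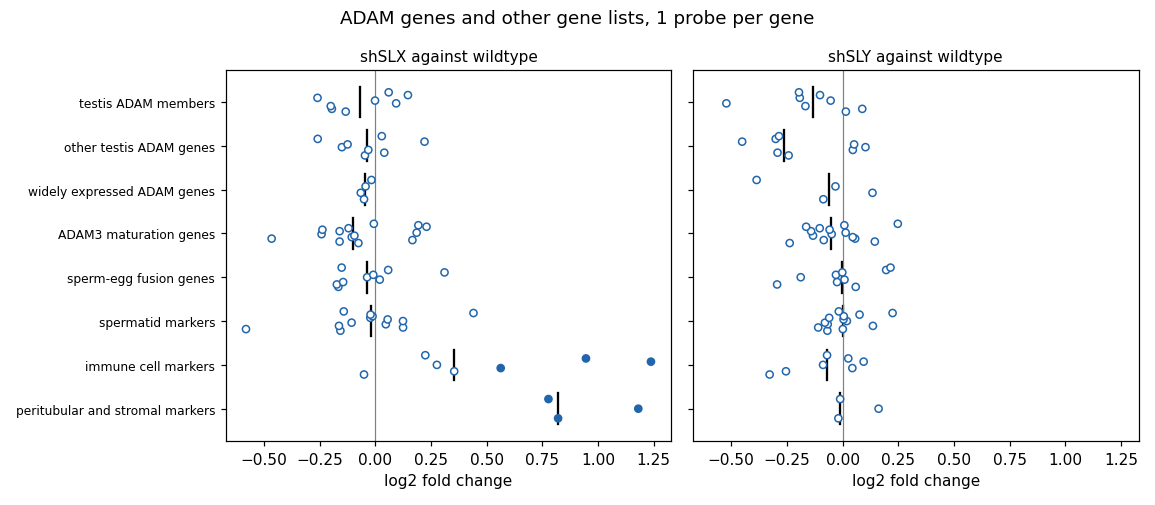
Log2 fold change (horizontal axis) of each detected gene, 1 probe per gene, in the ADAM lists and comparison lists (rows), with list medians as black bars and filled points at an adjusted p under 0.05. In the lists plotted, the filled points are the 6 immune and stromal markers that rose in libraries labelled shSLX, and no ADAM gene is filled.

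Some markers of other cells passed the test where no ADAM gene did. In libraries labelled shSLX, all 3 detected stromal markers rose (Dcn by 1.18 ± 0.12, Acta2 by 0.82 ± 0.12 and Myh11 by 0.78 ± 0.11, adjusted p = 0.00213, 0.00778 and 0.00933). Of 7 immune markers 3 rose: Lyz1 (1.24 ± 0.15, adjusted p = 0.00327), Lyz2 (0.95 ± 0.16, 0.0209) and C1qc (0.56 ± 0.11, 0.0421). Sohlh1, 1 of 4 detected spermatogonia markers, rose by 0.73 ± 0.11 (adjusted p = 0.0121). In the difference of effects Dcn (1.02 ± 0.20, adjusted p = 0.0420) and Lyz1 (1.14 ± 0.23, adjusted p = 0.0497) passed as well. Each effect is taken from wildtype of its own slide. Mean Lyz1 signal itself was lower in libraries labelled shSLX (8.85) than in those labelled shSLY (9.30), while mean Dcn signal was higher (9.29 and 8.85). Summed stromal intensity was 368 to 634 in wildtype, 910 to 921 in libraries labelled shSLX and 614 to 753 in libraries labelled shSLY. Summed immune intensity was 744 to 1513, 1104 to 1338 and 1402 to 1578. Of 13 spermatid markers 0 passed in either comparison, with a summed intensity of 171246 to 173480 in wildtype, 168261 to 180435 in libraries labelled shSLX and 167364 to 176251 in libraries labelled shSLY. Their part in the ADAM values was not tested.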

How the data were processed

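Members and lists were chosen with earlier results of these data known. The authors deposited 2 tables of linear probe intensity: a non-normalized one with a detection p-value per probe, per the file headers, and a normalized one, whose equal quartiles and maxima match quantile normalization. The submitters' processing notes name BeadStudio and GenomeStudio. No genome build is given there.

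Normalized intensities were corrected with normexp (offset 50), quantile-normalized and put on a log2 scale. Probes with a deposited detection p-value under 0.01 in at least 2 of 8 columns were kept (16572). Those columns are of the non-normalized table, so normalized wildtype 3 and 4 had no detection p-value of their own. Group and slide were fitted over all 8 arrays with limma 3.58.1 in R 4.3.3 (3 residual, 5.69 prior degrees of freedom). Adjusted p-values are limma's, by Benjamini-Hochberg over all kept probes, at 0.05. The number of arrays limits the precision. A gene was represented by its brightest kept probe, and symbols were updated to GRCm38.p6. All member probes are reported. Other list genes are named where they pass (at most 4 by t), otherwise up to 2 by size of t, and Calr3, Pdilt, Adam17 and Izumo1 were chosen after their values were seen. Alternatives covered the slide, background, filter, source table, replicate block and each array left out.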

Additional observations from a re-analysis of the deposited data

How the results depend on the processing

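All group names and slides are labels. No member probe passed in any comparison with offset 16, no background correction, either other detection filter or 1 probe per gene. Under the non-normalized table's own headers, 2 passed with shSLX and the medians over members became 0.20 (shSLX) and 0.11 (shSLY). Those 2 were Adam29 (1.15, adjusted p = 0.00795) and the dimmer Adam1b probe, which turned to 0.86. With the slide fitted, these values set the columns headed shSLX against those headed wildtype 3 and 4, which hold the normalized shSLY libraries. They are thus no difference from the normalized wildtype arrays. With no slide term 1 member probe passed with shSLY and 3 in the difference of effects (median 0.23). With the random block these were 1 and 1 (median 0.15), and within the slide 1 passed with shSLY. Deviations of same-numbered arrays from their group means correlated at -0.084 to 0.22. As each construct label has 2 arrays, the other number gives the same value with opposite sign. The check thus cannot decide whether numbers pair arrays. With the replicate block and no slide term, 1 passed with shSLX (Adam1b, turned to 0.56, median 0.099) and 4 in the difference (Adam1b turned to 0.45, median 0.23). Numbers 3 and 4 occur in wildtype only, so this block gives wildtype 3 and 4 no weight in the estimates.

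Over all probes the shSLX count (400) became 250 within the slide, 266 when detected in all columns, 2683 under the other headers and 2103 with the replicate block. The shSLY count (118) became 635 with no slide term, 469 with the random block, 558 within the slide, 17 with offset 16, 45 with 1 probe per gene, 50 under the other headers and 334 with the replicate block. The difference count (298) became 2445, 1043, 171 (offset 16), 175 (1 probe per gene), 21 (other headers) and 4383 (replicate block).

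Leaving out 1 array each gave 43 to 2495 calls with shSLX, 5 to 516 with shSLY and 13 to 1695 for the difference, and 0 to 2, 0 to 1 and 0 to 1 member probes. Medians over members ran from -0.10 to -0.016, -0.18 to -0.086 and -0.047 to 0.095. Without wildtype 1 the shSLY effect has no value, and within slides the difference has none. Of 552 single-probe values under alternatives, 16 passed in the reported direction, 3 passed against it and 53 changed sign without passing. The causes were not tested, and 2 arrays per construct label limit all calls.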

Other observations

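The columns headed shSLX 1 and 2 in the non-normalized table match no column of the normalized table (best Spearman correlations 0.893 and 0.916), so the comparisons on the normalized table do not use their readings. Their intensities enter only the alternative under that table's own headers, but their detection p-values count in the filter that chose the kept probes. After limma's neqc, the brighter Adam29 probe (ILMN_1253199) read 10.93 and 10.79 in these columns, above the 9.69 to 10.54 of the other 6 columns. It was the 1 of 11 detected member probes for which both columns stood above all others, where 8.32% of all kept probes did, and 0 stood below. Adam3 read 13.83 and 13.79 in these columns against 13.49 to 13.83 in the others, and Adam24 10.51 and 10.45 against 10.09 to 10.52. The Adam18 values were 11.74 and 12.05 against 11.65 to 11.84. All 11 detected probes were past the detection threshold in both columns.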
